A study of Mus musculus with 50 samples.

Results

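Colon of 10 TNBS vehicle mice was compared with colon of 10 sham mice, all of the BALBC genotype as the labels spell it, which is 20 of the 50 libraries of the series. The libraries were chosen by their titles alone, and each was taken as 1 mouse, since the series text speaks of mice, although the labels do not say outright that every library came from a separate animal. The p-values below therefore measure the spread between these libraries. TNBS is trinitrobenzene sulfonic acid, a hapten placed in the colon to provoke colitis, and the vehicle mice had TNBS and no test compound. The sham mice had no TNBS; what they were given in its place, the interval between TNBS and collection, and age and sex are not stated in the sources used here. The other 30 libraries came from TNBS mice dosed with A1007, an agonist of the aryl hydrocarbon receptor, and entered only 1 alternative fit. Poly(A) RNA of whole colon pieces, distal per the series text and of 1 batch per the labels, was sequenced.

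TNBS binds to proteins of the colon wall and turns them into targets of the immune system once ethanol or injury has opened the epithelial barrier. The injured wall fills with neutrophils and monocytes, epithelium at the ulcer edge spreads and divides to cover the gap, and fibroblasts lay down and remodel matrix under it. A bulk library mixes all of these cells, so a gene can be lower because fewer cells carry it or because each cell holds less of its RNA, and these cannot be told apart here.

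The deposited table held 56691 genes, of which 16820 passed the filter on low counts and were tested (edgeR quasi-likelihood test). A gene was called when its Benjamini-Hochberg adjusted p over these genes was under 0.05. Called genes numbered 5502 (32.7% of those tested), 3045 of them higher in vehicle mice (18.1%) and 2457 lower (14.6%). The change was at least 2-fold for 1006 called genes (5.98%), 826 higher and 180 lower. Large changes ran one way, since 96 called genes were at least 8-fold higher and 0 were 8-fold lower, and the largest called fall was -2.57 on the log2 scale. The median log2 fold change of all tested genes was 0.005, with quartiles of -0.20 and 0.25, and list medians below are read against it. In 530 genes (3.15%) all 10 vehicle mice lay above all 10 sham mice, and in 193 (1.15%) all 10 lay below. Of all calls 55.3% were higher, but 42% under quantile normalization, where 2400 genes were called higher and 3314 lower.

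**Figure D1:**
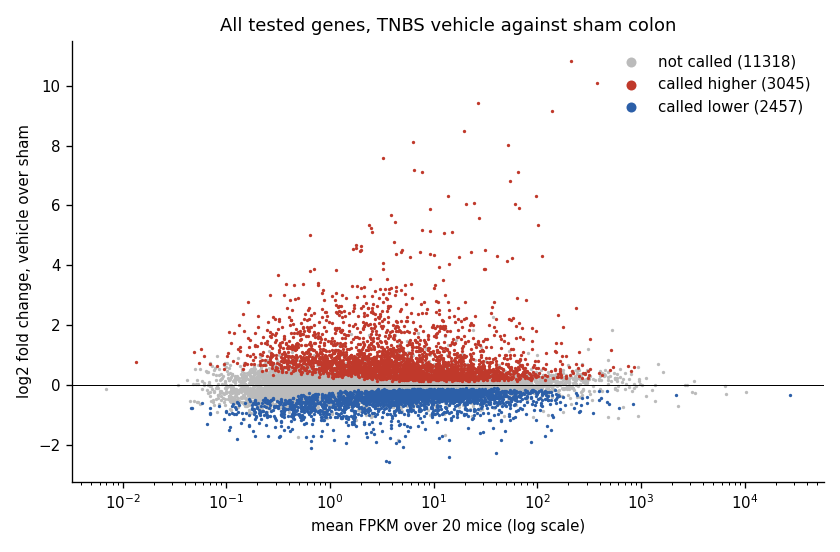
Log2 fold change, vehicle over sham, of every tested gene (y axis) against its mean FPKM over the 20 mice (x axis, log scale). Grey points are genes that were not called, red points genes called higher and blue points genes called lower; the red points reach far higher than the blue points reach low.

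Vehicle mice differed much more from each other than sham mice did. The median SD of a tested gene over 10 mice was 0.165 in sham and 0.33 in vehicle mice on the log2 CPM scale. The first principal component of the 1000 most variable genes held 53.7% of their variance, with sham mice between -28.81 and -19.50 and vehicle mice between -4.65 and 72.55. Library totals were 16031757 to 20391034 counts in sham and 15324404 to 18916591 in vehicle mice, and reads of the mitochondrial genome made up 7.7% to 9.7% and 5.9% to 9.6%. Epcam, a surface protein of all colon epithelium, had 736, 788 and 814 FPKM in sham and 569, 775 and 855 in vehicle mice, where 3 values for a group are its lowest, its median and its highest mouse here and below. Of 12 genes that mark colon tissue 0 were higher and 4 lower in vehicle mice (median -0.25), among them the exchanger Slc26a3, the anhydrase Car4 and the brush border protein Vil1 (-0.30), and their summed level was 19110 to 27030 CPM in sham and 15610 to 22740 CPM in vehicle mice.

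Some gene groups separated every vehicle mouse from the sham mice and others did not. Summed neutrophil markers lay between 28.2 and 64.0 CPM in sham mice and between 58.3 and 5358 in vehicle mice. Vehicle mouse 1, at 58.3, was inside the sham range, mice 3 and 10 had 79.1 and 103, and mice 5 and 9 had 3206 and 5358. Summed collagens, at 1425 to 2254 CPM in sham mice, were 5229 to 11090 CPM in vehicle mice, with every vehicle mouse above every sham mouse. Vehicle mouse 1 had the lowest collagen sum of its group.

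**Figure D2:**
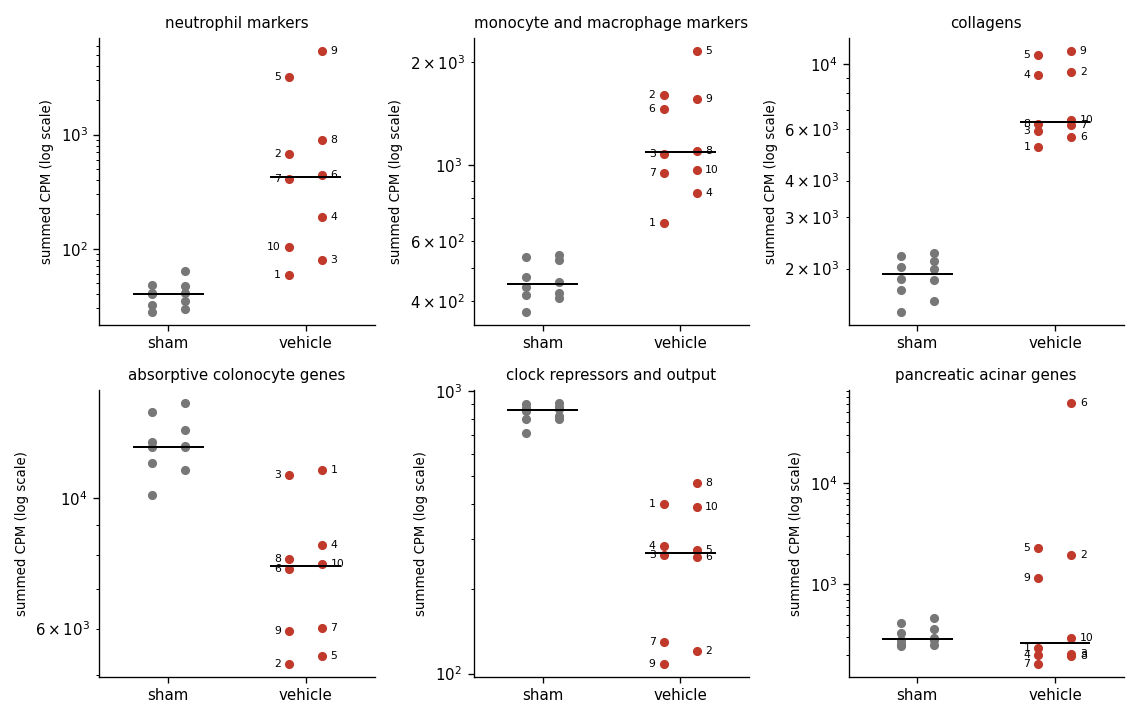
Summed CPM of 6 gene lists in each mouse (y axis, log scale), sham mice on the left and vehicle mice on the right of each panel, with the replicate number of each vehicle mouse beside its point and a bar at the group median. Collagens, clock output genes and monocyte and macrophage markers separate the groups completely. Neutrophil markers run from 58.3 to 5358 CPM among vehicle mice, and acinar genes stand far above the rest in vehicle mouse 6.

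Vehicle mouse 6 carried RNA of the exocrine pancreas. Its summed pancreatic acinar genes had 61310 CPM, against 245 to 469 CPM in sham mice, where the listed gene Sycn had 276, 382 and 632 FPKM. Vehicle mice 2, 5 and 9 had 1969, 2301 and 1165 CPM, and the other 6 had 166 to 299. Of 19 acinar genes 12 failed the expression filter, and Ctrb1, a chymotrypsinogen, had 27300 FPKM in vehicle mouse 6 and at most 4.04 in sham mice. Without that mouse 5246 genes were called, 3042 higher and 2204 lower, and 4918 of them were also called with all 20 mice.

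The largest rises with groups that did not overlap included genes known from neutrophils, macrophages, matrix and keratinized epithelium. Beyond the calprotectin genes S100a8 and S100a9, at log2 fold changes of 10.84 and 10.08, came Chil3, a chitinase-like protein of myeloid cells coded on chromosome 3 (106054870 to 106074880 on GRCm39), with 0, 0.08 and 0.18 FPKM in sham and 0.73, 15.4 and 251 FPKM in vehicle mice (a log2 fold change of 9.44, SE 1.40, adjusted p = 5.15e-05). Vehicle mice 9 and 5 were highest, and 10 of 10 vehicle mice exceeded all sham mice. Arg1, the arginase of wound macrophages, had 0.42, 0.78 and 0.98 FPKM in sham and 1.46, 23.2 and 146 in vehicle mice (6.08, SE 0.90, adjusted p = 5.13e-05). Mouse 5 was highest, and the lowest vehicle mouse was above the highest sham mouse. Timp1, the inhibitor of matrix metalloproteinases, had 0.4, 1.06 and 1.56 FPKM in sham and 4.33, 48.5 and 513 in vehicle mice (6.82, SE 0.94, adjusted p = 2.44e-05). Spp1, the secreted adhesion protein osteopontin, had 0.25, 0.615 and 0.95 FPKM in sham and 2.28, 19.7 and 189 in vehicle mice (6.06, SE 0.83, adjusted p = 2.28e-05). Both genes were highest in mouse 9 and left no overlap between the groups. Ptx3, a soluble pattern receptor made by stroma and myeloid cells, rose by 7.11 and the resistin-like Retnlg of neutrophils by 6.04.

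Keratins of stratified epithelium were among these largest rises. Krt90 (chromosome 15, 101460791 to 101471385 on GRCm39) had 0, 0.04 and 0.11 FPKM in sham and 1.08, 6.14 and 52.5 in vehicle mice (8.11, SE 0.94, adjusted p = 3.89e-06). Krt13, a keratin of the layers above the basal one in moist stratified epithelium, had 0, 0.045 and 0.28 FPKM in sham and 1.11, 3.07 and 46 in vehicle mice (7.19, SE 0.97, adjusted p = 1.97e-05). Mouse 9 was highest for both, and the other vehicle mice were spread between it and the sham range without entering that range. Krt14, a keratin of basal cells, had 0.08, 0.255 and 0.7 FPKM in sham and 0.51, 2.12 and 10 in vehicle mice and exceeded all sham mice in 9 of 10 vehicle mice (3.32, adjusted p = 5.63e-05). Of 15 squamous epithelium genes only 5 passed the filter, 2 rose and 1 fell, so this list gives no picture of squamous epithelium as a whole.

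**Figure D3:**
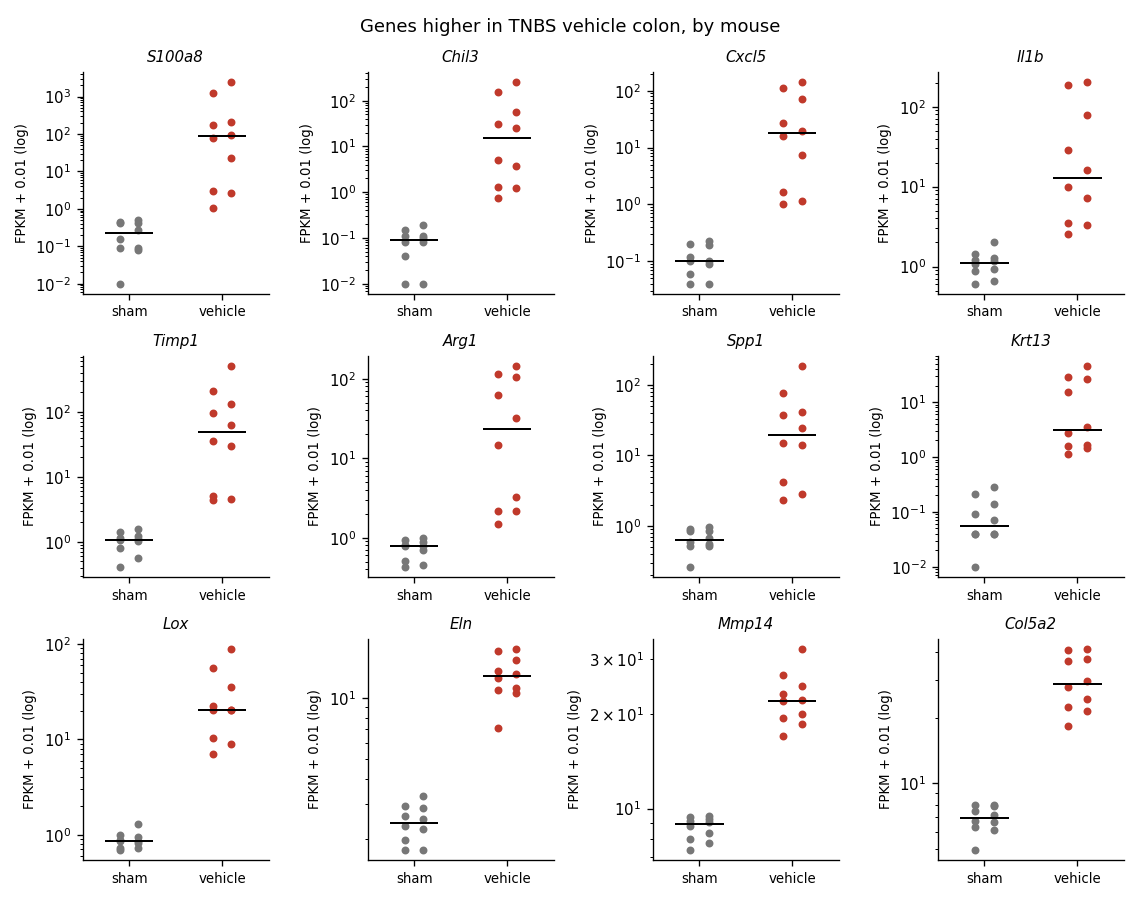
FPKM in each mouse (y axis, log scale, 0.01 added so that 0 can be drawn) of 12 genes that rose, with sham mice in grey and vehicle mice in red and a bar at each group median. Eln, Mmp14 and Col5a2 form tight groups, while S100a8, Chil3 and Cxcl5 spread over several orders of magnitude among vehicle mice.

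The genes with the smallest p-values were different ones, with smaller changes and tighter groups, and most coded for matrix. Eln, elastin, (chromosome 5, 134731447 to 134776177 on GRCm39) had 1.76, 2.41 and 3.26 FPKM in sham and 7.12, 12.8 and 17.5 in vehicle mice (2.41, SE 0.15, adjusted p = 9.5e-10). Mmp14, a membrane-anchored collagenase that also activates Mmp2, had 7.37, 8.91 and 9.43 FPKM in sham and 17, 22 and 32.3 in vehicle mice (1.38, SE 0.08, adjusted p = 9.5e-10). Its gelatinase partner Mmp2 had 8.83, 11.5 and 14 FPKM in sham and 23.4, 30.9 and 43.7 in vehicle mice (1.47, SE 0.11, adjusted p = 1.07e-08). In all 3 genes the vehicle mice lay within a few fold of each other and wholly above the sham mice. The others were the collagen chains Col4a1, Col4a2, Col5a1 and Col5a2 (log2 fold changes 2.07, 1.81, 2.11 and 2.12), the matrix protein Olfml2b (1.24), C3ar1, the receptor of complement fragment C3a (2.21), and 1 gene that fell. That gene was Wee1, a kinase that holds cells back from mitosis and that the clock also drives, at 12.2, 13.5 and 15.1 FPKM in sham and 4.75, 7.01 and 9.16 in vehicle mice (-0.95, SE 0.07, adjusted p = 1.02e-08), with all 10 vehicle mice below all sham mice.

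Neutrophil and macrophage markers rose in nearly every tested member. All 12 tested neutrophil markers of 17 listed were called higher (median log2 fold change 4.86), and in 7 of them the groups did not overlap, but genes near 0 in sham mice could pass the filter only through the vehicle mice. Cxcr2, the receptor of the neutrophil-attracting chemokines, had 0, 0.035 and 0.1 FPKM in sham and 0.21, 4.59 and 20.8 in vehicle mice (7.57, SE 0.92, adjusted p = 6.26e-06). Padi4, the enzyme that citrullinates histones in neutrophil extracellular traps, was more even, at 0.1, 0.24 and 0.38 FPKM in sham and 1.02, 2.12 and 2.64 in vehicle mice (3.08, SE 0.24, adjusted p = 1.57e-08). Both left a gap between the groups, and vehicle mouse 5 was highest in both. The chemokine Cxcl5 had 0.03, 0.09 and 0.22 FPKM in sham and 1.02, 17.7 and 140 in vehicle mice (8.48, SE 1.11, adjusted p = 1.47e-05), and its relative Cxcl1 0.03, 0.305 and 0.83 FPKM in sham and 0.41, 5.94 and 75.8 in vehicle mice with 7 of 10 vehicle mice above all sham mice (5.88, adjusted p = 0.000177).

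Of 20 tested monocyte and macrophage markers 19 rose and 0 fell (median 1.53), 13 of them without overlap. Csf1r, the receptor that macrophages need to live, had 4.79, 5.44 and 5.98 FPKM in sham and 9.17, 10.7 and 18.2 in vehicle mice (1.17, SE 0.10, adjusted p = 8.5e-08). Mrc1, the mannose receptor, had 3.34, 4.45 and 5.84 FPKM in sham and 8.21, 12 and 18.1 in vehicle mice (1.55, SE 0.15, adjusted p = 4.06e-07). The scavenger receptor Cd163 was more uneven, at 0.61, 1.38 and 2.29 FPKM in sham and 1.45, 3.6 and 22.4 in vehicle mice with mouse 5 highest (2.56, adjusted p = 0.000698). Timd4, a marker of long-lived resident gut macrophages, was the member that was not called, at 0.42, 0.605 and 1.78 FPKM in sham and 0.33, 0.95 and 8.12 in vehicle mice (1.02, adjusted p = 0.108). Most mast cell and eosinophil genes rose, 8 of 10 tested and all of these at least 2-fold (median 2.29). The 2 that fell did so by less than 2-fold, and 1 of them was Kit, given below with the pacemaker cells. The mast cell proteases Mcpt1 and Mcpt2, at 0.53, 37.6 and 546 and 0.51, 18 and 255 FPKM in vehicle mice against 1.97, 3.63 and 21.6 and 0.89, 1.14 and 7.82 in sham mice, were led by vehicle mouse 7, whose neutrophil markers summed to 404 CPM, and lay inside or below the sham range in others (4.14 and 4.45, adjusted p = 0.00161 and 0.000989). Cpa3, the mast cell carboxypeptidase, was above all sham mice in 10 of 10 (3.20, adjusted p = 0.000152).

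Lymphocyte and dendritic cell lists had shares of higher calls on both sides of the 18.1% of all tested genes called higher. Of 16 tested T cell markers 2 rose and 0 fell (median 0.44; 0 rose with voom weights), of 12 dendritic cell markers 3 rose and 0 fell (0.13), and of 17 B cell and plasma cell markers 3 rose and 1 fell (0.18). Ctla4, the inhibitory receptor of regulatory T cells, had 0.11, 0.24 and 0.43 FPKM in sham and 0.14, 0.42 and 3.03 in vehicle mice (1.95, SE 0.56, adjusted p = 0.0115), with mouse 5 highest and 5 mice inside the sham range; this call was lost with quantile normalization, voom weights, limma on FPKM and the rank-sum test. Of 9 tested cytotoxic and intraepithelial lymphocyte markers 3 rose and 1 fell (median 0.21), and 2 rose and 2 fell with quantile normalization. Gzma, granzyme A, had 0.25, 0.705 and 0.99 FPKM in sham and 0.63, 1.86 and 10.2 in vehicle mice and exceeded all sham mice in 8 of 10 (1.98, adjusted p = 0.00168). Gzmb, granzyme B, was at 0.03, 0.33 and 0.48 FPKM in sham and 0.53, 1.42 and 2.09 in vehicle mice without overlap (2.11, adjusted p = 4.92e-05), and mouse 10, among the mildest in neutrophil markers, was highest. Ighm, the heavy chain of IgM, had 19.6, 29.2 and 72.6 FPKM in sham and 23.7, 63.2 and 140 in vehicle mice (1.22, adjusted p = 0.00581). Pigr, which carries IgA across the epithelium, fell from 917, 1034 and 1117 to 328, 689 and 1017 FPKM, with 9 of 10 vehicle mice below all sham mice (-0.64, adjusted p = 0.00315).

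None of 22 interferon response genes was called in edgeR, 0 had an unadjusted p under 0.05, and 0 were called by DESeq2, limma with quantile normalization, limma voom with sample weights or the rank-sum test. Their median log2 fold change was 0.07 and they ran from -0.35 to 0.65. Irf1, a transcription factor of the interferon-gamma response, had 21.8, 26.8 and 43 FPKM in sham and 19.5, 25 and 48.5 in vehicle mice (0.02, 95% interval -0.30 to 0.34, adjusted p = 0.931). The vehicle mice covered the sham range. Class I presentation had 2 of 12 genes higher and class II 1 of 11, against 18.1% of all tested genes. H2-K1 rose by 0.43 and lost its call with all 50 mice in the edgeR fit (adjusted p = 0.0569). H2-Q7 rose by 1.16 at low levels, with 0.07 to 0.33 FPKM in sham and 0.12 to 0.69 in vehicle mice. Cd74, the invariant chain of class II, had 162, 172 and 309 FPKM in sham and 88.3, 224 and 368 in vehicle mice (0.22, adjusted p = 0.383), with vehicle mice on both sides of the sham range. Bst2, a virus-tethering protein counted here with the dendritic cell markers, had 9.31, 11.5 and 17 FPKM in sham and 12.4, 20.1 and 39.8 in vehicle mice and rose (0.98, adjusted p = 0.00084).

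**Figure D4:**
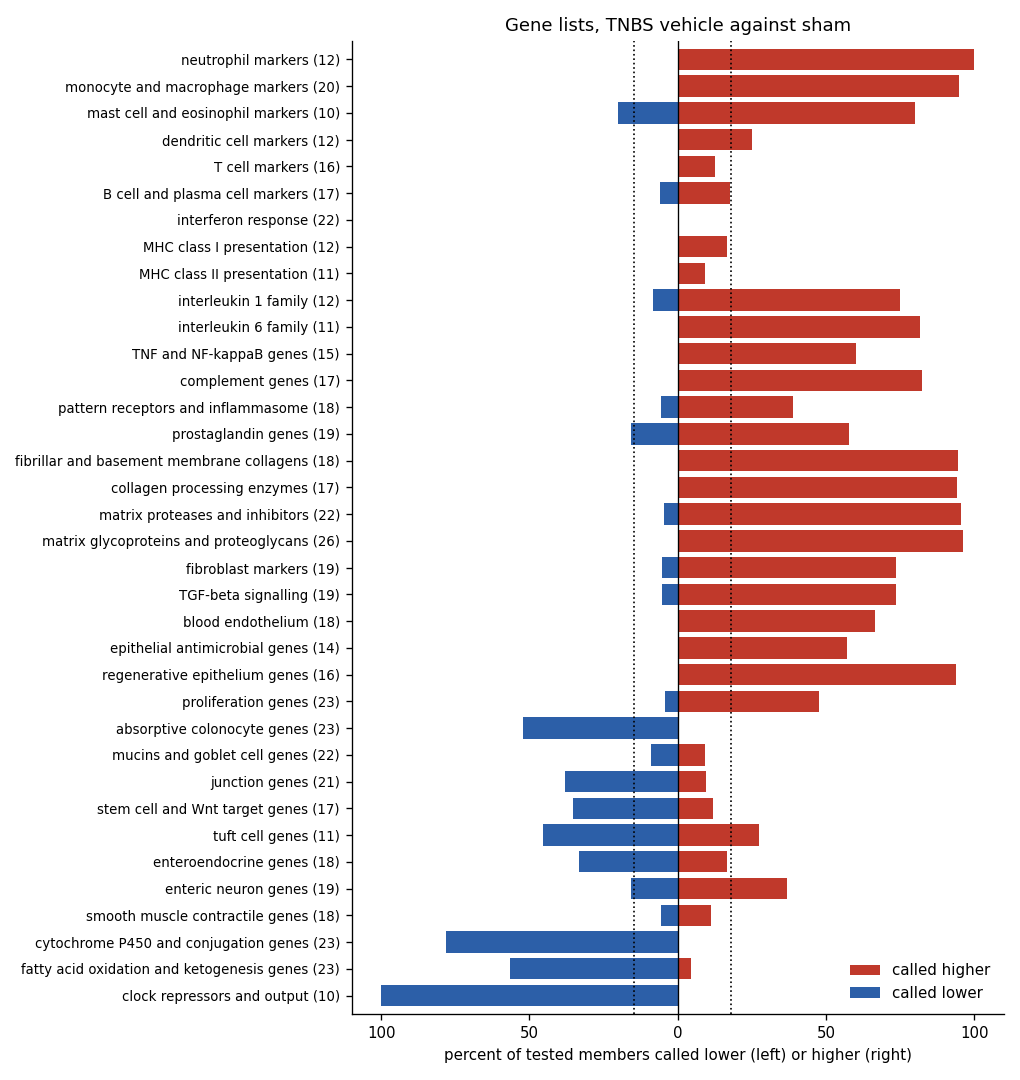
Share of the tested members of 36 gene lists that were called higher (red, to the right) or lower (blue, to the left), in percent of tested members, with the number tested in brackets. Dotted lines mark the 18.1% and 14.6% of all tested genes called higher and lower; matrix and myeloid lists fill the right side, clock output, cytochrome P450 and fatty acid oxidation lists the left, and the interferon list neither.

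Ligands of the interleukin 1 and interleukin 6 families rose, and so did some of their receptors. In the interleukin 1 family 9 of 12 tested genes rose and 1 fell (median 1.57). Il1a, the alarmin form released by dying cells, had 0.03, 0.14 and 0.23 FPKM in sham and 0.32, 1.45 and 36.6 in vehicle mice (5.69, SE 0.99, adjusted p = 0.000253). Il1b, the form secreted by myeloid cells, had 0.6, 1.11 and 2 FPKM in sham and 2.51, 12.9 and 201 in vehicle mice (5.58, SE 0.88, adjusted p = 9.77e-05), with mouse 8 highest rather than 9 or 5. Both had all vehicle mice above all sham mice. Il33, an alarmin of stroma and epithelium, and its receptor Il1rl1 rose by 2.02 and 2.90, whereas the signalling chain Il1rap, at 1.35, 1.57 and 1.86 FPKM in sham and 1.23, 1.77 and 3.81 in vehicle mice, was not called (0.32, adjusted p = 0.142). Casp1, which cuts pro-Il1b, was the member that fell, from 58.5, 68.2 and 73.6 to 29.8, 53.1 and 68.5 FPKM (-0.38, adjusted p = 0.0164).

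In the interleukin 6 family 9 of 11 tested genes rose and 0 fell (median 0.66). Il11, a cytokine of activated fibroblasts, had 0.03, 0.2 and 0.3 FPKM in sham and 0.37, 3.02 and 33 in vehicle mice (5.46, SE 0.90, adjusted p = 0.000141). Osm, oncostatin M of myeloid cells, had 0.03, 0.135 and 0.26 FPKM in sham and 0.08, 1.23 and 10.7 in vehicle mice (4.59, SE 0.84, adjusted p = 0.000359). Il11 left no overlap and was highest in mouse 9, and Osm exceeded all sham mice in 8 of 10 and was highest in mouse 5. The receptor of oncostatin M, Osmr, rose in 10 of 10 mice by 1.40 on average (adjusted p = 0.000244), the shared transducer Stat3 by 0.54 (adjusted p = 0.000197), and Il11ra1, the receptor of Il11, was not called (0.14, 95% interval -0.11 to 0.40). Among TNF and NF-kappaB genes 9 of 15 rose and 0 fell (0.68), Tnfrsf1b, the inducible TNF receptor, by 1.23 and Tnfaip2 by 1.65. Of 23 other chemokines and receptors 10 rose and 1 fell, with Ccr1 (2.39) and the monocyte and eosinophil attractant Ccl8 (2.78) each above all sham mice in 10 of 10, and Ccl20, an epithelial attractant of Ccr6-bearing lymphocytes, not called (-0.20, adjusted p = 0.477).

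Several textbook colitis genes failed the expression filter, which asks for enough counts in at least 10 libraries, and they are given as levels. Il6 had 0, 0.02 and 0.04 FPKM in sham and 0.04, 1.08 and 33.7 in vehicle mice, with 9 of 10 above all sham mice. Cxcl2, a chemokine of neutrophils, had 0, 0.055 and 0.45 FPKM in sham and 0.08, 10.2 and 253 in vehicle mice, with 7 of 10 above. Mmp8, the collagenase of neutrophil granules, had 0, 0.01 and 0.14 FPKM in sham and 0.05, 5.59 and 134 in vehicle mice, with 9 of 10 above. In each the highest mouse was 5 or 9 and the lowest vehicle mouse was inside the sham range. Il36g, an epithelial member of the interleukin 1 family, was listed at 0 in every sham mouse and had 0.07, 2.08 and 21.8 FPKM in vehicle mice, 10 of 10 above 0. Il17a was listed at 0 in every sham mouse and reached 0.49 FPKM at most in vehicle mice, with 6 of 10 above 0. Il22, at 0, 0.08 and 0.42 FPKM in sham and 0, 0.08 and 0.63 in vehicle mice, and Ifng, at 0, 0.05 and 0.31 FPKM in sham and 0, 0.05 and 0.15 in vehicle mice, overlapped between the groups. Without the filter Il6, Cxcl2, Mmp8, Il36g and Il17a were called (adjusted p = 0.00053, 0.000647, 0.000668, 0.0103 and 0.0093) and Il22 and Ifng were not (adjusted p = 0.746 and 0.558).

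Downstream innate effectors rose in part. Of 17 tested complement genes 14 rose and 0 fell (median 1.38), 9 without overlap. The 3 chains of C1q, the first component of the classical pathway, moved together, with C1qa at 24.6, 28.4 and 35.3 FPKM in sham and 47.5, 73.2 and 108 in vehicle mice and log2 fold changes of 1.39, 1.52 and 1.55 for C1qa, C1qb and C1qc. Among 18 tested pattern receptors and inflammasome genes 7 rose and 1 fell (median 0.14), with the nucleic acid sensors Tlr7, Tlr8 and Tlr13 at 1.10, 1.60 and 2.05 and the fungal glucan receptor Clec7a at 1.22. Naip1, a sensor abundant in colon epithelium, had 69.8, 81.7 and 91.9 FPKM in sham and 64.4, 85.7 and 97.2 in vehicle mice and was not called (0.02, adjusted p = 0.861). Of 14 tested epithelial antimicrobial genes 8 rose and 0 fell (median 2.21). Without vehicle mouse 6 the median was 1.65 and 8 rose. The list includes Chil3, named above as a gene of myeloid cells, so the rise is not shown to be epithelial. Lcn2, which starves bacteria of iron, had 0.16, 0.425 and 0.7 FPKM in sham and 0.64, 16.4 and 340 in vehicle mice (8.01, adjusted p = 0.000141), and the protease inhibitor Slpi had 1.43, 2.56 and 3.96 FPKM in sham and 7.59, 46.2 and 153 in vehicle mice (4.52, adjusted p = 3.58e-06). Slpi separated the groups and Lcn2 did so in 9 of 10 vehicle mice. Lypd8, which keeps bacteria off the inner mucus layer, stayed at 1953, 2732 and 3033 FPKM in sham and 1821, 2677 and 3683 in vehicle mice and was not called (adjusted p = 0.999).

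Enzymes that make prostaglandin E2 rose and the one that inactivates it fell. Of 19 tested prostaglandin genes 11 rose and 3 fell (median 0.58). Ptgs2, the inducible cyclooxygenase, had 1.48, 1.88 and 2.55 FPKM in sham and 1.6, 9.36 and 51.2 in vehicle mice, 7 of 10 above all sham mice (3.25, SE 0.59, adjusted p = 0.000378). Ptges, the synthase that follows it to prostaglandin E2, had 1.12, 1.67 and 2.87 FPKM in sham and 3.25, 4.79 and 9.75 in vehicle mice (1.66, SE 0.23, adjusted p = 2.12e-05). Hpgd, the enzyme that inactivates prostaglandin E2, had 172, 227 and 244 FPKM in sham and 83.3, 125 and 142 in vehicle mice (-0.79, SE 0.10, adjusted p = 9.16e-06). Ptges had all vehicle mice above the sham mice, and Hpgd all below. Ptger4, a receptor of prostaglandin E2, was also below in 10 of 10 (-0.45, adjusted p = 2.11e-06). Of 18 tested genes of reactive oxygen and nitric oxide 12 rose and 2 fell, with the phagocyte oxidase subunit Ncf4 at 1.43 and the plasma glutathione peroxidase Gpx3 at 21.9, 31.4 and 37.6 FPKM in sham and 53.6, 65.9 and 284 in vehicle mice (1.92, adjusted p = 0.000177).

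Matrix genes rose in nearly every member of their lists. Of 18 tested fibrillar and basement membrane collagens 17 rose and 0 fell (median 1.53), 12 without overlap. Col3a1, a fibrillar collagen of granulation tissue, had 36.7, 52.4 and 66.2 FPKM in sham and 169.8, 208 and 430.1 in vehicle mice (2.33, SE 0.18, adjusted p = 1.74e-08). Col14a1, a fibril-associated chain, was the exception at 4.37, 6.97 and 9.23 FPKM in sham and 4.11, 7.55 and 13.4 in vehicle mice (0.20, adjusted p = 0.434), with vehicle mice on both sides of the sham range. Of 17 tested collagen processing enzymes 16 rose and 0 fell (1.30). Lox, which cross-links collagen and elastin, had 0.68, 0.85 and 1.28 FPKM in sham and 6.98, 20.4 and 89.2 in vehicle mice (5.11, SE 0.47, adjusted p = 2.46e-07), and its relatives Loxl1 and Loxl2 rose by 2.12 and 2.18. The collagen chaperone Serpinh1 had 15.9, 23.3 and 27.7 FPKM in sham and 47.6, 62.3 and 116 in vehicle mice (1.68, adjusted p = 6.8e-07).

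Most genes listed as matrix proteases, matrix glycoproteins and fibroblast markers rose as well. Which cells held this RNA was not tested. Of 22 tested matrix proteases and inhibitors 21 rose and 1 fell (median 2.25), with Adamts4, which cleaves aggrecan and versican, at 0.03, 0.16 and 0.21 FPKM in sham and 1.08, 3.12 and 12.8 in vehicle mice (5.10, SE 0.55, adjusted p = 1.56e-06). Of 26 tested matrix glycoproteins and proteoglycans 25 rose and 0 fell (1.45), 17 without overlap, with fibronectin, Fn1, at 14.7, 18.9 and 25.3 FPKM in sham and 45.7, 92 and 144 in vehicle mice (2.21, adjusted p = 1.92e-07) and the microfibril protein Fbn1 at 2.14, 3.04 and 3.29 in sham and 7.01, 9.75 and 19.8 in vehicle mice (1.88, adjusted p = 5.07e-08). Fmod, fibromodulin, was the member not called (0.56, adjusted p = 0.23). Of 19 fibroblast markers 14 rose and 1 fell (1.06). Grem1, a BMP antagonist of fibroblasts under the crypts, had 12.8, 14.8 and 18.3 FPKM in sham and 35.6, 129 and 193 in vehicle mice (2.91, SE 0.30, adjusted p = 7.63e-07), and podoplanin, Pdpn, had 4.57, 6.3 and 7.17 in sham and 11.5, 23.1 and 65 in vehicle mice (2.20, adjusted p = 1.52e-05). Every vehicle mouse was above every sham mouse in both, mice 5, 9 and 2 leading.

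Of 19 TGF-beta signalling genes 14 rose and 1 fell (0.67). Inhba, the activin A subunit, had 0.26, 0.395 and 0.45 FPKM in sham and 0.54, 4.42 and 11.7 in vehicle mice (3.54, SE 0.49, adjusted p = 2.44e-05), far above the change of Tgfbr2 (0.81) or of Lrrc32, which holds latent TGF-beta on cell surfaces (1.57). The partner receptor Tgfbr1 was not called (0.10, 95% interval -0.06 to 0.25). Of 13 matrix-binding integrins 6 rose and 1 fell, led by Itga5, the fibronectin receptor chain, at 6.6, 7.86 and 8.47 FPKM in sham and 12.9, 22.7 and 61.8 in vehicle mice (1.94, adjusted p = 3.82e-05), with Itgb3 and Itgb5 at 1.00 and 0.47 and the epithelial anchor Itgb4 not called (0.11, adjusted p = 0.318).

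Vessel genes rose more modestly. Of 18 blood endothelial genes 12 rose and 0 fell (median 0.55), and only 2 of these by 2-fold. Cdh5, the cadherin of endothelial junctions, had 3.81, 5.71 and 7.9 FPKM in sham and 8.42, 10.7 and 17.8 in vehicle mice (0.94, SE 0.13, adjusted p = 1.64e-05). Apln, a peptide of sprouting vessel tips, had 0.44, 0.63 and 0.85 FPKM in sham and 1.21, 2.33 and 4.69 in vehicle mice (1.99, SE 0.20, adjusted p = 3.54e-07). Both separated the groups, and mouse 5 was highest. Of 10 tested vascular adhesion molecules 8 rose and 0 fell (0.88), with P-selectin, Selp, at 0.42, 0.7 and 1.1 FPKM in sham and 1.18, 4.82 and 19.3 in vehicle mice (3.20, adjusted p = 4.87e-05) and Icam1 at 0.87. Of 8 lymphatic genes 2 rose and 0 fell, and Ccl21a, the lymphatic attractant of dendritic and T cells, had 46.9, 64.1 and 113 FPKM in sham and 55, 84 and 165 in vehicle mice and was not called (0.36, adjusted p = 0.158).

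Absorptive epithelium moved down. Of 23 tested absorptive colonocyte genes 12 fell and 0 rose (median -0.40), 5 of them at least 2-fold. Slc26a3, the chloride and bicarbonate exchanger (chromosome 12, 31440870 to 31523916 on GRCm39), had 111, 184 and 251 FPKM in sham and 22.3, 54.9 and 79.5 in vehicle mice (-1.71, SE 0.20, adjusted p = 2.61e-06). Car4, the carbonic anhydrase of surface cells, had 141, 207 and 240.2 FPKM in sham and 38.8, 59.5 and 134 in vehicle mice (-1.51, SE 0.20, adjusted p = 1.52e-05). Atp12a, the potassium-absorbing proton pump of distal colon, had 35.7, 58.4 and 105 FPKM in sham and 1.86, 11.7 and 31.2 in vehicle mice (-2.29, SE 0.42, adjusted p = 0.000372). In these 3 genes all vehicle mice were below all sham mice, and Car4 was highest among vehicle mice in mouse 9, the mouse richest in neutrophil markers. Car1, the most abundant of the list, had 2031, 2683 and 4250 FPKM in sham and 542, 1258 and 4243 in vehicle mice and was not called (-0.70, adjusted p = 0.0925), with 8 of 10 vehicle mice below all sham mice and mouse 1 at the top of the sham range. It was called without mouse 1 (adjusted p = 0.015) or mouse 3 (adjusted p = 0.0255).

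Positional genes moved beside these. Of 9 tested genes of proximal colon and small intestine 6 fell and 0 rose (median -0.68), with summed levels of 289.3 to 668.9 CPM in sham and 170 to 583 CPM in vehicle mice. Hoxb6 had 7.4, 14.6 and 21.2 FPKM in sham and 2.62, 6.83 and 13 in vehicle mice (-0.93, adjusted p = 0.00289) and the transcription factor Osr2 4.52, 12.6 and 14.2 in sham and 0.62, 5.82 and 8.32 in vehicle mice (-1.04, adjusted p = 0.00725). Of 8 distal Hox genes 1 rose and 0 fell, with sums of 214 to 430 and 154 to 360 CPM, and Hoxb13, the most distal marker, had 35.2, 53.6 and 82.8 FPKM in sham and 18.1, 57.1 and 69.1 in vehicle mice (-0.13, adjusted p = 0.617). Whether the pieces were cut at slightly different positions, and what that did to the colonocyte genes, was not tested.

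Few goblet cell genes were called. Of 22 tested mucin and goblet genes 2 rose and 2 fell (median -0.19). Zg16, a lectin of goblet cell mucus, had 954, 1477 and 1562 FPKM in sham and 892, 1749 and 3254 in vehicle mice and was not called (0.44, adjusted p = 0.126), but was without vehicle mouse 1 (adjusted p = 0.0486). Spink4, a goblet cell peptide, had 204, 272 and 699 FPKM in sham and 201, 598 and 1948 in vehicle mice (1.18, adjusted p = 0.00848) with 3 of 10 vehicle mice above all sham mice. With quantile normalization the list had 1 rise and 6 falls. Of 21 junction genes 2 rose and 8 fell (median -0.16). Cldn8, a sealing claudin of distal colon, had 9.84, 15.5 and 18.6 FPKM in sham and 23.1, 37.2 and 62.1 in vehicle mice (1.37, adjusted p = 1.31e-05) and Cldn4 6.69, 8.45 and 10.8 in sham and 8.78, 18.2 and 67.5 in vehicle mice (1.61, adjusted p = 0.00059), while occludin, Ocln, had 25.1, 30.1 and 31.7 FPKM in sham and 14.9, 22.3 and 25.9 in vehicle mice (-0.47, adjusted p = 0.000172) and the pore-forming Cldn15 fell by 0.53. Cldn8 rose in 10 of 10 vehicle mice and Ocln was below all sham mice in 9 of 10.

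More stem cell and Wnt target genes fell than rose, and most genes listed for repairing epithelium rose. Of 17 tested stem cell and Wnt target genes 2 rose and 6 fell (median -0.09), against 18.1% and 14.6% of all tested genes. Axin2, a direct Wnt target, had 6.91, 7.85 and 8.47 FPKM in sham and 2.21, 4.5 and 5.73 in vehicle mice, all below (-0.82, SE 0.11, adjusted p = 1.27e-05). Ascl2, the transcription factor of crypt stem cells, had 3.26, 4.44 and 6.12 FPKM in sham and 0.96, 2.63 and 3.83 in vehicle mice (-0.97, adjusted p = 0.00039), and Rnf43, which removes Wnt receptors, fell by 0.53. The risers were Smoc2, a matrix protein of crypt base cells, at 3.56, 4.18 and 4.6 FPKM in sham and 4.66, 6.46 and 10.7 in vehicle mice without overlap (0.77, adjusted p = 0.000142), and the hyaluronan receptor Cd44, which many other cells also carry (1.02, adjusted p = 0.000674), given to complete the count. Olfm4, which failed the filter, had 0, 0.07 and 0.18 FPKM in sham and 0, 1 and 18.1 in vehicle mice, 9 of 10 above all sham mice, and was called without the filter (adjusted p = 0.000892). Of 16 tested regenerative epithelium genes 15 rose and 0 fell (median 1.05), and 12 rose with quantile normalization or the rank-sum test. Other cells also carry some of them, such as Il33 in stroma and Msln in mesothelium, so the rise is not shown to be epithelial. Ereg, the growth factor epiregulin, had 2.86, 3.48 and 4.62 FPKM in sham and 5.73, 15 and 62.6 in vehicle mice (2.76, SE 0.45, adjusted p = 0.000119), Msln, mesothelin, rose by 1.98 and Anxa1 by 1.09. Ereg separated the groups, with mice 5 and 9 highest. Of 23 tested proliferation genes 11 rose and 1 fell (0.41), with Rrm2, a subunit of ribonucleotide reductase, at 5.26, 6.42 and 10.6 FPKM in sham and 7.23, 12.1 and 34.3 in vehicle mice (1.17, adjusted p = 0.00136) and Cdk1 at 0.73. Mouse 2 was the highest for both.

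Genes of rare epithelial cells fell more often than they rose. Of 11 tested tuft cell genes 5 fell and 3 rose (median -0.28). Gnat3, a taste G protein, had 0.64, 0.955 and 2.13 FPKM in sham and 0.05, 0.295 and 0.66 in vehicle mice (-1.69, adjusted p = 0.00126), and Trpm5, the cation channel that it opens, had 0.74, 0.87 and 1.34 in sham and 0.2, 0.36 and 0.77 in vehicle mice (-1.14, adjusted p = 0.000392). Each was below all sham mice in 9 of 10 vehicle mice. The 3 risers included Ptgs1, the constitutive cyclooxygenase, at 7.97, 8.91 and 10.1 FPKM in sham and 10, 12 and 19.5 in vehicle mice (0.58, adjusted p = 0.00135), and, outside the rule for named genes, Alox5 (0.67), both of which myeloid cells also carry. With quantile normalization, voom weights or the replicate block 1 gene rose. Alox5 lost its call without sham mouse 3, 5, 6, 7, 8 or 10 or vehicle mouse 2, 5, 6, 7 or 9 (adjusted p = 0.0523 to 0.0835). Quantile normalization, voom weights, limma on FPKM, the rank-sum test, the replicate block and no filter also removed it. Its adjusted p there was 0.0566 to 0.62. Of 18 tested enteroendocrine genes 6 fell and 3 rose (-0.19), against 14.6% and 18.1% of all tested genes. The granule protein Chgb had 91.8, 109 and 128 FPKM in sham and 58.2, 68.4 and 92.7 in vehicle mice (-0.62, adjusted p = 6.51e-06) and the transcription factor Neurod1 fell by 0.63. The hormone Pyy rose from 65.6, 72.3 and 91.8 to 63.9, 112 and 260.3 FPKM (0.82, adjusted p = 0.00568), Gcg, the glucagon and GLP-1 precursor, had 47.5, 60.1 and 69.8 in sham and 42.9, 62.1 and 92 in vehicle mice (0.05, adjusted p = 0.764), and was not called. Slc6a4, the serotonin transporter, fell from 2.65, 3.17 and 3.63 to 1.14, 1.4 and 2.71 FPKM (by 1.00, adjusted p = 2.56e-05), as did the monoamine oxidases Maoa and Maob (-0.76 and -0.86), while Ddc, which makes serotonin from its precursor, was not called (0.08, adjusted p = 0.506).

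Genes of detoxification and of fatty acid use were lower. Of 23 cytochrome P450 and conjugation genes 18 fell and 0 rose (median -0.73), 5 without overlap. Cyp2c69 had 6.42, 7.61 and 10.4 FPKM in sham and 1.23, 2.16 and 4.47 in vehicle mice (-1.71, SE 0.19, adjusted p = 1.3e-06). Ugt2b34, a glucuronosyltransferase, had 149, 190.1 and 207 FPKM in sham and 37.1, 99.3 and 133 in vehicle mice (-0.99, SE 0.17, adjusted p = 0.000143). Abcb1a, the drug efflux pump P-glycoprotein, had 125, 178 and 238 FPKM in sham and 23.4, 72.4 and 121 in vehicle mice (-1.36, SE 0.23, adjusted p = 0.000177). All 3 had every vehicle mouse below every sham mouse, and vehicle mouse 1 was the least reduced. Cyp2c55, the most abundant P450 of the list, had 492, 836 and 1247 FPKM in sham and 144, 477 and 1141 in vehicle mice and was not called (-0.73, adjusted p = 0.0728), but was without mouse 1 or 3 (adjusted p = 0.0145 and 0.0347). Aadac, an arylacetamide deacetylase, and Cyp2d13 were also among the largest falls without overlap (-1.46 and -1.40). Close members of the Cyp2c, Cyp2d and Ugt families may share reads, so their single values are uncertain.

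Of 23 tested genes of fatty acid oxidation and ketogenesis 13 fell and 1 rose (median -0.34). Ppara, the receptor that switches this pathway on, had 3.98, 5.83 and 7.35 FPKM in sham and 0.3, 2.49 and 3.75 in vehicle mice (-1.34, SE 0.26, adjusted p = 0.000552), and its coactivator Ppargc1a had 6.79, 9.52 and 11.2 in sham and 2.4, 5.75 and 6.85 in vehicle mice (-0.87, adjusted p = 0.00015). Cpt1a, the gate of fatty acids into mitochondria, fell by 0.36 and Acadvl by 0.38, and Acadl was not called (-0.08, adjusted p = 0.466). Of 22 tested nuclear respiratory chain genes 6 fell and 0 rose (median -0.03), with Sdha at -0.29, and of 13 mitochondrially encoded ones 2 fell and 0 rose (-0.20). Of 18 cholesterol synthesis genes 1 rose and 0 fell (-0.08). Of 22 tested hypoxia and glycolysis genes 7 rose and 1 fell (0.10). Only 4 rose with quantile normalization, voom weights, the replicate block or the rank-sum test. The lactate exporter Slc16a3 had 0.99, 1.18 and 1.51 FPKM in sham and 1.39, 4.12 and 14.6 in vehicle mice (2.21, adjusted p = 0.000179). The myeloid hexokinase Hk3 rose by 2.40, while the hypoxia target Vegfa was not called (0.09, 95% interval -0.16 to 0.34).

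Stress programmes were mixed. Of 19 unfolded protein response genes 12 rose and 3 fell (median 0.37), with the chaperones Pdia6 at 59, 63.4 and 76.5 FPKM in sham and 79, 88.1 and 111 in vehicle mice (0.46, adjusted p = 0.000178) and Manf at 0.73, and the plasma cell and secretory factor Xbp1 not called (0.14, adjusted p = 0.175). The heat shock genes Hspa1a and Hspa1b fell by 1.77 and 1.60; they are near-identical, so their reads may be split between them, and Hspb1 rose by 1.59. Of 16 NRF2 target and glutathione genes 5 fell and 1 rose, Gclc and Gclm, the subunits of glutathione synthesis, by -0.47 and -0.39, while the cystine importer Slc7a11 had 0.19, 0.29 and 0.31 FPKM in sham and 0.25, 0.75 and 2.84 in vehicle mice and rose (1.93, adjusted p = 0.000381). Of 15 tested iron and heme genes 6 rose and 2 fell, with heme oxygenase, Hmox1, at 2.29, 3.29 and 4.85 FPKM in sham and 3.58, 16.7 and 62.4 in vehicle mice (2.50, adjusted p = 0.000122) and haptoglobin, Hp, at 0.07, 3.85 and 12.3 in sham and 2.58, 39.2 and 814 in vehicle mice (5.34, adjusted p = 0.00109). Hp was highest in vehicle mouse 6. Of 13 tested AhR pathway genes 2 rose and 1 fell, against 18.1% and 14.6% of all tested genes. Ahr itself rose by 0.18 (edgeR adjusted p = 0.00727). The other riser was Cyp1b1 (4.54), at 0.05 to 0.33 FPKM in sham and 0.16 to 14.5 in vehicle mice. It was highest in vehicle mice 6, 5 and 9 and overlapped between the groups. The member that fell was Ugt1a6a.

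Several neuropeptide genes rose. Of 19 enteric neuron genes 7 rose and 3 fell (median -0.07). Gal, galanin, had 4.21, 6.98 and 11.6 FPKM in sham and 6.09, 25.7 and 85.7 in vehicle mice (2.21, SE 0.41, adjusted p = 0.000382). Cartpt had 0.27, 0.755 and 1.36 FPKM in sham and 0.88, 3.69 and 11.3 in vehicle mice (2.43, SE 0.43, adjusted p = 0.000238), and Npy, neuropeptide Y, 0.28, 0.69 and 1.87 in sham and 1.35, 2.77 and 13 in vehicle mice (2.41, SE 0.47, adjusted p = 0.000613). Mouse 9 was highest in all 3, and 7 or 8 of 10 vehicle mice exceeded all sham mice. Uchl1, a protein of all neurons, had 7.2, 10.2 and 15.4 FPKM in sham and 6.4, 8.85 and 14.6 in vehicle mice and was not called (-0.11, adjusted p = 0.651), and Ret, the receptor of enteric progenitors and neurons, rose by 0.78. Of 12 enteric glia genes 3 rose and 4 fell, with S100b at 1.56, 1.97 and 3.91 FPKM in sham and 0.72, 1.17 and 2.11 in vehicle mice (-0.86, adjusted p = 0.00178) and Fabp7, a lipid carrier of immature glia, at 0.04, 0.16 and 0.33 in sham and 0.63, 1.01 and 3.5 in vehicle mice (3.06, adjusted p = 2e-05). Fabp7 separated the groups upward and S100b was below all sham mice in 8 of 10.

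Muscle changed little as a list, with 2 of 18 smooth muscle contractile genes higher and 1 lower (median 0.19), and 1 higher and 2 lower with quantile normalization. The smooth muscle actins Acta2 and Actg2 had 324, 508 and 764 and 210.3, 741 and 1353 FPKM in vehicle mice against 368, 446 and 513 and 367, 490.2 and 664 in sham mice, were not called (0.26 and 0.55) and lay on both sides of the sham range. Both were called higher without mouse 5 (adjusted p = 0.0246 and 0.016). Pln, the brake of the calcium pump, had 4.65, 5.84 and 8.61 FPKM in sham and 1.38, 2.5 and 5.52 in vehicle mice and fell (-1.20, adjusted p = 0.000163). Of 7 tested genes of the pacemaker cells of Cajal 2 fell and 1 rose, with Kit at 10.8, 15.5 and 18.1 FPKM in sham and 6.56, 11.2 and 15.7 in vehicle mice (-0.44, adjusted p = 0.00907) and the channel Ano1 not called (-0.32, adjusted p = 0.175).

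Genes of the circadian clock fell furthest, with Ciart the largest fall of any called gene. In this loop Bmal1 (Arntl) with Clock or Npas2 switches on the Per, Cry and Rev-erb (Nr1d) repressors and the output factors Dbp, Tef and Hlf, and the Rev-erb proteins in turn hold Arntl and Npas2 down. All 10 genes of the repressor and output list fell (median -1.77), 9 at least 2-fold and 7 with all vehicle mice below all sham mice. Ciart, a repressor of the Bmal1 complex, had 4.76, 6.62 and 7.81 FPKM in sham and 0.14, 1.05 and 2.54 in vehicle mice (-2.57, SE 0.35, adjusted p = 1.66e-05). Dbp had 17.3, 23.3 and 31.1 FPKM in sham and 0.41, 3.65 and 10.6 in vehicle mice (-2.42, SE 0.46, adjusted p = 0.000553). Per2 had 14.3, 18.1 and 24.9 FPKM in sham and 2.32, 5.95 and 9.57 in vehicle mice (-1.72, SE 0.19, adjusted p = 1.93e-06). Vehicle mouse 8 was the least reduced in these 3 genes and no vehicle mouse entered the sham range. Per3, Tef, Hlf and Nr1d2 fell by 1.86, 1.82, 1.92 and 1.56, also without overlap, and so did the deubiquitinase Usp2, a clock output outside the list (-1.53). The other 3 members, Per1 (-1.25, adjusted p = 0.000208), Nr1d1 (-1.04, adjusted p = 0.00469) and Bhlhe41 (-0.92, adjusted p = 0.000281), are given to complete the list. Among the activators Arntl rose from 0.92, 1.1 and 1.36 to 2, 3.86 and 5.86 FPKM (1.90, SE 0.15, adjusted p = 1.58e-08) and Npas2 from 1.21, 1.4 and 1.64 to 2.32, 3.98 and 4.77 (1.46, SE 0.12, adjusted p = 2.35e-08), both in 10 of 10 mice, and Clock was not called (0.09, 95% interval -0.08 to 0.26).

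The summed clock output was 714 to 909 CPM in sham mice and 109 to 474 CPM in vehicle mice, lowest in mice 9, 2 and 7 and highest in mice 8, 1 and 10. The hour at which each mouse was killed is not stated in the sources used here, so the time of day and TNBS cannot be told apart in these genes.

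**Figure D5:**
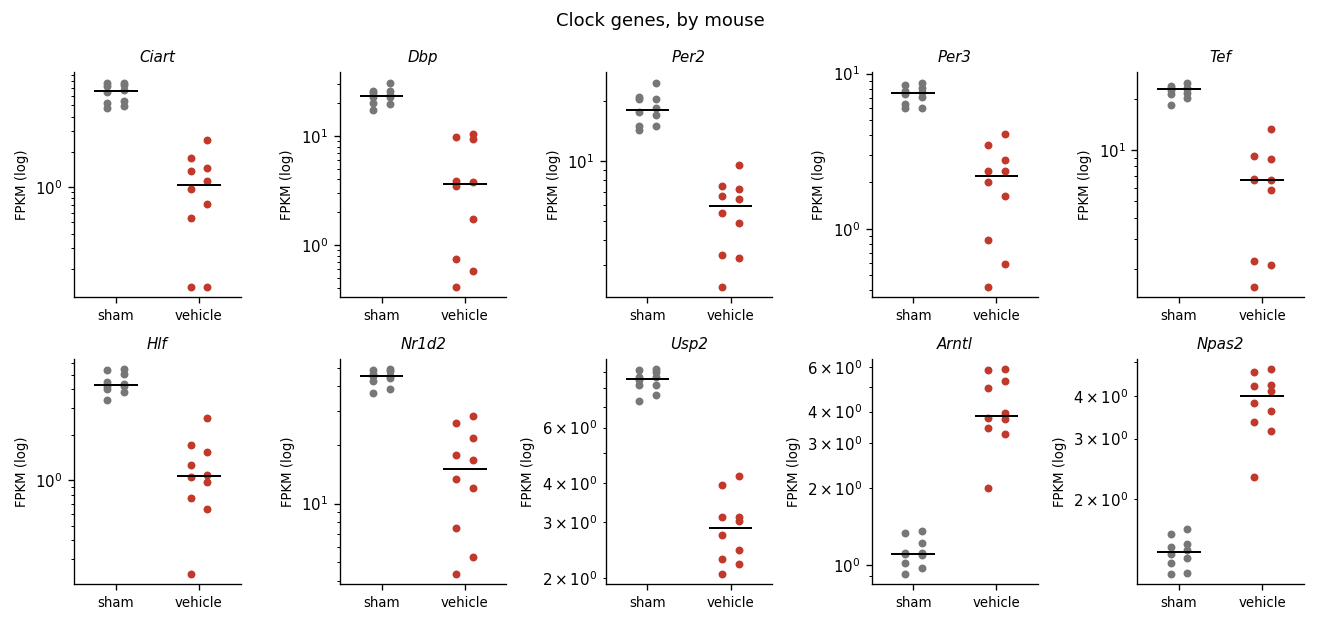
FPKM in each mouse (y axis, log scale) of 10 clock genes, with sham mice in grey, vehicle mice in red and a bar at each group median. The first 8 genes lie lower in every vehicle mouse than in any sham mouse, while Arntl and Npas2 lie higher.

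Upstream sequences of 5 of these genes are shown because they hold the letters through which the clock complexes are known to bind. The E-box CACGTG is bound by the Bmal1 complex and the D-box TTATGTAA by Dbp, Tef and Hlf. Of the 10 listed genes 9 had a RefSeq promoter entry (build GRCm38.p6). In the 250 bases before the start 4 genes held the E-box and 1 held the D-box, with both strands searched. Of 32851 promoter entries of all genes 6.02% held the E-box and 0.819% the D-box. A listed gene counted when any of its entries matched, whereas the percentages are of single entries, so they are not directly comparable. Each line gives a window of 150 bases around the matches, taken from the 250 bases before the start and written 5′ to 3′ on the gene's strand, with matches in capitals.
Ciart, chr3:95882231-95882380, minus strand, E-box: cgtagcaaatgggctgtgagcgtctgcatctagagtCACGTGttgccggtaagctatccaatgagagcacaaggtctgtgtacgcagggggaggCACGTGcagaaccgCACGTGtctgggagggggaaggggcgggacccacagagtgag
Per3, chr4:151044766-151044915, minus strand, D-box: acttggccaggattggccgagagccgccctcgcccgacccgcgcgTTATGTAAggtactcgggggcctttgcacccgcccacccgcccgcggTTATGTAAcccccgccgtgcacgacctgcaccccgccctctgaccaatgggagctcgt
Bhlhe41, chr6:145865496-145865645, minus strand, E-box: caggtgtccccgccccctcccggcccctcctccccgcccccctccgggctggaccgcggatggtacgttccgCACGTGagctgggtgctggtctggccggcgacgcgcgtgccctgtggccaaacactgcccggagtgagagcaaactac
Per1, chr11:69098711-69098860, plus strand, E-box: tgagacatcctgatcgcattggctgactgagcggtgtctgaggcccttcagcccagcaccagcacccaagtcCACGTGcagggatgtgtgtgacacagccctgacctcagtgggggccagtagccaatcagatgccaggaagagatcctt
Tef, chr15:81802474-81802623, plus strand, E-box: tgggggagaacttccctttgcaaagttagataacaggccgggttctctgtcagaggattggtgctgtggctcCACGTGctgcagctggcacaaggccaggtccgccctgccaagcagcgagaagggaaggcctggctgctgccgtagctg
Ciart had 3 E-boxes, the first beginning 116 and the last 44 bases before its start, and Per3 had 2 D-boxes, at 205 and 158 bases. The E-box of Bhlhe41 began 153, that of Per1 166 and that of Tef 127 bases before the start. A match describes the letters only, and these data do not measure binding.

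Genes of other tissues and of handling were checked. Summed fat and mesentery genes ran from 62.5 to 3851 CPM in sham and from 207 to 3974 CPM in vehicle mice, with medians of 1794.5 and 740.5 CPM. Of 13 such genes 2 were called higher and 0 lower (median -0.40), both being genes of mesothelium, Msln and Wt1 (2.04), and the adipose gene Car3 had 1.1, 267 and 551 FPKM in sham and 8.97, 97.8 and 683 in vehicle mice (-0.62, adjusted p = 0.597). Red cell genes had 0 of 4 called in edgeR and in DESeq2, with 0 at an unadjusted p under 0.05, and Hbb-bs had 8.23, 13.4 and 39.2 FPKM in sham and 0.16, 25.1 and 181 in vehicle mice. Of 9 tested lymph node and Peyer's patch genes 4 rose and 0 fell (median 0.11), but 2 rose with quantile normalization or the rank-sum test and 1 with the replicate block. Their sum was 53.4 to 208 CPM in sham mice, 2629 CPM in vehicle mouse 6 and 79.6 to 546 CPM in the other vehicle mice. One of the 4 was Gp2, a protein of M cells and of pancreatic acinar cells, with 1179 FPKM in vehicle mouse 6 and 0.55, 2.3 and 3.59 in sham mice, whose log2 fold change went from 5.92 to 2.59 without that mouse and whose call was lost under 5 other alternatives. Another was Cxcl13, the B cell attractant of follicles, at 10.5, 26.1 and 42 FPKM in sham and 20.1, 51.4 and 298 in vehicle mice (1.97, adjusted p = 0.00219). Glycam1, of lymph node venules and counted with the adhesion molecules, was not called (0.05, adjusted p = 0.938). How much lymphoid tissue each piece held was not tested. Of 24 ribosomal protein genes 5 were called higher (median 0.31), but 0 without vehicle mouse 6 (median 0.27) and 0 by the rank-sum test. Their sum was highest in vehicle mouse 9, at 23250 CPM, with 18140 CPM in mouse 2 and 17270 CPM in mouse 6. The 2 called genes of the pancreatic islet list, Iapp (4.26) and Ppy (1.33), were highest in mouse 6. Iapp lost its call without that mouse (edgeR adjusted p = 0.304).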

How the data were processed

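Per the labels, poly(A) RNA of colon was sequenced, all in 1 batch. Per the submitters' processing notes, cutadapt 1.9.1, HISAT2 2.2.1, HTSeq 0.6.1 and DESeq2 were used with genome build GRCm39. The strand setting and the handling of multi-mapping reads were not given in the sources used here. Deposited by the authors for each library were a raw count and an FPKM value per gene, with the exon length per gene. An FPKM recomputed from count, length and library total lay within 1% of the deposited value for 99.998% of 132754 values with at least 500 counts. Gene symbols came from the same table; 2639 genes had no symbol and 959 shared one. No column of other samples was left over.

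Raw counts of the 20 libraries were analysed in R 4.3.3 with edgeR 4.0.16 (filterByExpr with a count minimum of 10, TMM scaling, robust glmQLFit, glmQLFTest, Benjamini-Hochberg adjustment, called at an adjusted p under 0.05), and the script was tested on simulated data. Fold changes are vehicle over sham on the log2 scale, intervals are 95% intervals of the fit, and levels are the deposited FPKM. Summed CPM adds a list's counts after scaling to the library total. No 2 libraries of a group were alike within counting noise (lowest chi-square per degree of freedom 7.93 in sham and 17.3 in vehicle mice). The members and the 68 gene lists, with 1064 distinct genes of which 7 were not matched in the table, were chosen with earlier results of these data known. Genes were named as the largest changes without overlap at 5 FPKM or more, the smallest p-values, and for each list up to 4 called members with the smallest p and the most abundant uncalled and overall members. Promoter sequences are RefSeq's, build GRCm38.p6. Alternatives were other scalings, DESeq2 1.42.0, limma 3.58.1 on counts and on log2(FPKM + 0.5), a rank-sum test, other filters, all 50 libraries, removal of pancreatic genes, a replicate block, and leaving out each library.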

Additional observations from a re-analysis of the deposited data

Results flagged for a closer look

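Within each group of 10 mice, the highest and the lowest mouse were compared with the nearest other mouse on the log2 scale, for 222 genes and 11 list sums of the text. A mouse was set aside as standing apart when its gap to the next mouse was more than 0.466 of the range of its group. This held for 28 of 466 sets of values, and chance alone gives about 1 in 20.

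Sham mouse 5 was the high one in 8 genes: Ccl8 (6.2 FPKM), Il1rl1 (1.16 FPKM), the mast cell proteases Mcpt1 (21.58 FPKM) and Mcpt2 (7.82 FPKM), Retnlg (6.99 FPKM), Cxcl2 (0.45 FPKM), Rrm2 (10.6 FPKM) and Spink4 (698.9 FPKM). The 7 that were tested, all but Cxcl2, were called higher in vehicle mice with sham mouse 5 and without it. Gp2 was low in the same mouse (0.55 FPKM). In sham mouse 3 Cd74 was high (308.6 FPKM), and Lypd8 (1953 FPKM), Vil1 (135.7 FPKM) and Sdha (111.4 FPKM) were low. Clock was high in sham mouse 4 (9.16 FPKM), Serpinh1 low in sham mouse 6 (15.92 FPKM), and Cxcr2 high in sham mouse 10 (0.1 FPKM).

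In vehicle mouse 6 the pancreatic acinar genes summed to 61310 CPM and Iapp, the islet peptide, had 105.1 FPKM. Vehicle mouse 5 was high in Cdh5 (17.83 FPKM), Fbn1 (19.82 FPKM) and Tlr7 (3.12 FPKM) and low in Hoxb13 (18.06 FPKM). Vehicle mouse 9 was low in Cpt1a (20.83 FPKM), Sdha (65.37 FPKM), Sord (12.57 FPKM) and Osr2 (0.62 FPKM). Timd4 was high in vehicle mouse 3 (8.12 FPKM) and Gzma in vehicle mouse 7 (10.2 FPKM).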

How the results depend on the processing

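The number of called genes lay between 4640 (without vehicle mouse 2) and 5896 (without vehicle mouse 1) when each library was left out, against 5502 with all 20. It was 5481 with RLE size factors, 5714 with quantile normalization, 6027 with DESeq2, which replaces outlying counts in groups of this size, 5109 with voom weights, 5066 with limma on FPKM, 5365 with the rank-sum test, 6193 with all 50 mice, 5475 without pancreatic genes, 5173 without a filter and 4774 with a count minimum of 50. The count of called genes with a change of at least 2-fold depended most on the method, at 1006 in the report, 534 with limma on FPKM, which changes the test, the scaling and the pseudocount together, 1779 without a filter, where 35483 genes were tested, and 616 with a count minimum of 50, where 13367 were. Among single genes, 279 kept their call wherever they were run, 64 gained or lost one under at least 1 alternative and 0 reversed; 292 of these genes could be run under all 32 alternatives. Of the genes printed, Alox5, Ctla4, Cxcl13, Gp2, H2-K1, Iapp and Ppy lost their call under at least 1 alternative, and Acadl, Acta2, Actg2, Car1, Clock, Cyp2c55, Sycn, Timd4, Xist and Zg16 gained one.

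With the replicate block, 4273 genes were called, 2260 higher and 2013 lower, 900 of them at least 2-fold. Same-numbered sham and vehicle mice deviated from their group means with a correlation of -0.15 to 0.26 (median -0.10), and 1 of 10 vehicle mice correlated best with its own number. These correlations showed no pairing by number but could not exclude one. Genes of low count in sham mice, such as the cytokines, could be tested only where vehicle mice carried them, and intervals cover the spread between these libraries only.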

Other observations

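The genes below belong to no list above and were chosen after their values had been seen. Genes of 2 nuclear hormone receptors were lower in every vehicle mouse than in any sham mouse. The vitamin D receptor, Vdr, had 63.6, 70.9 and 77.6 FPKM in sham and 16.8, 34.9 and 55.8 in vehicle mice (log2 fold change -0.95, edgeR adjusted p = 0.000182). Nr3c2, the mineralocorticoid receptor through which aldosterone drives sodium uptake, had 20.8, 22.7 and 24.6 FPKM in sham and 6.43, 13.1 and 17.7 in vehicle mice (-0.88, adjusted p = 0.00029). The metabolic enzymes Pck1, of glucose synthesis, Otc, of the urea cycle, and Sord, sorbitol dehydrogenase, fell by 1.10, 1.21 and 1.19 on the log2 scale, each without overlap. The bile acid importer Slc10a2, a transporter best known from ileum, had 29, 59.8 and 80.7 FPKM in sham and 13.7, 19.4 and 32.6 in vehicle mice and overlapped in 2 vehicle mice (-1.43, adjusted p = 2.68e-05).

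Among further genes above all sham mice in 10 of 10, Nfil3, a repressor that binds the D-box, had 1.53, 2.03 and 2.81 FPKM in sham and 5.01, 10.2 and 30.3 in vehicle mice (2.77, adjusted p = 4.09e-06), while the clock genes Cry2 and Cipc fell by 0.99 and 1.16. Aldh1a3, which makes retinoic acid, had 1.47, 1.85 and 2.24 FPKM in sham and 3.77, 12.2 and 47 in vehicle mice (3.34, adjusted p = 2.08e-05). The imprinted transcript H19 had 0.02, 0.14 and 0.22 FPKM in sham and 1.51, 2.9 and 7.58 in vehicle mice (4.68, adjusted p = 1.57e-08), and Bdkrb1, the inducible kinin receptor, rose by 4.63 and Snai1, a transcription factor of mesenchymal change, by 2.63. Xist, the transcript that coats the inactive X chromosome, had 39, 43.1 and 51.5 FPKM in sham and 7.86, 37 and 47.4 in vehicle mice. It was not called (-0.44, edgeR adjusted p = 0.109), although 6 vehicle mice lay below all sham mice and mouse 9, richest in neutrophil markers, was lowest. The Y-linked genes checked summed to at most 0.821 CPM in sham mice and to 0 in vehicle mice, so no library looked male.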
